A study of Mus musculus with 40 samples.

Results

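The 8 genes described here are Serpina6, Afp, Hdc, Penk, Defb19, Atp12a, Hmcn1 and Frem1, out of 18194 genes that the arrays name through a probe set with 1 symbol. They were chosen by the size of the decline of their signal in mouse kidney from 1 to 8 weeks of age. Changes with age in kidney therefore describe the choice and carry no test of the 8 genes. For the same reason, their p-values for 4-week kidney against lung or heart are a description only. By size of that decline they held places 1 to 4, 6 to 8 and 10; Birc5, a cell division gene, and Cdkn1c, a cell cycle inhibitor gene, held places 5 and 9 and were not taken. Just inside the list stood Frem1 with a difference of -3.90 on the log2 scale, and just outside it stood Cdca7 with -3.83 and Ptn with -3.74.

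The 8 genes encode proteins of unrelated kinds. Serpina6 encodes corticosteroid-binding globulin, the plasma carrier of glucocorticoids, and Afp encodes alpha-fetoprotein, the main plasma protein of the fetus. Both are best known as secreted products of the liver. Hdc encodes histidine decarboxylase, the enzyme that makes histamine, and Penk encodes proenkephalin, from which the opioid enkephalin peptides are cut. Defb19 encodes a beta-defensin, one of a family of small secreted peptides known for killing microbes. Atp12a encodes the catalytic subunit of the non-gastric proton-potassium pump, which exchanges protons for potassium in epithelia. Hmcn1 encodes hemicentin 1, a giant extracellular matrix protein, and Frem1 encodes a basement membrane protein that assembles with Fras1 and Frem2 into the Fraser complex, which ties epithelium to the tissue beneath it and is needed for kidney formation. In the mouse, nephrons go on forming for some days after birth, and the kidney's tubules mature over the following weeks.

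Kidney, lung and heart came from male C57BL/6 mice, a common inbred strain, with no treatment or genetic change named. Mice were 1, 4 or 8 weeks old for kidney and lung, and 1 or 4 weeks old for heart, which makes 8 groups of 5 arrays. The labels describe the organs as proliferating rapidly at 1 week, slowly at 4 weeks and very slowly at 8 weeks. RNA came from the whole organ, so fewer cells of a type and less RNA per cell cannot be told apart.

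Of the 40 arrays, 38 were used, because 2 carried the transcripts of another organ than their label. On the library labelled heart 1 week replicate 5, Sftpc, a surfactant gene of the lung, had a signal of 27190 against 125 to 1072 on the other 1-week hearts, and Myh6, a heart muscle myosin gene, had 2396. On the library labelled lung 1 week replicate 4, Sftpc had 1982 against 23330 to 28920 on the other 1-week lungs, and Myh6 had 36020. All kidney arrays carried the signals of kidney genes such as Umod, at 10650 to 39080. Lung and heart results at 1 week are given without these 2 libraries and, where it matters, with them as labelled. Signals are in the arrays' own units, with the trimmed mean of each array at 500. Differences are between means of log2(signal + 16), and a fold is 2 to the power of that difference, which understates the change of dim genes. A gene was tested where its highest group mean of log2(signal + 16) reached the value for a signal of 117.9. A change was called at an adjusted p under 0.05. Signals of different genes are not compared, because probes differ in brightness.

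Of the 8 genes, 4 had an upstream sequence in the RefSeq promoter table (GRCm38.p6): Afp, Hdc, Hmcn1 and Frem1. The 250 bases before the table's start of Afp and of Hdc are shown. Both genes fell in kidney mainly by 4 weeks. On lung arrays Hdc overlapped the 1-week kidneys at every age, whereas Afp lay below all 1-week kidneys. Their changes in lung were not tested against each other.

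Afp, chr5:90490464-90490713, plus strand: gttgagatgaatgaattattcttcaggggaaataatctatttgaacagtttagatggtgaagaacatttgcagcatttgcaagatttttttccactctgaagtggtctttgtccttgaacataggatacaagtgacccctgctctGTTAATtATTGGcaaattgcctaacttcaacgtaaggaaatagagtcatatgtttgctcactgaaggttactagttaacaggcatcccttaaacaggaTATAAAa

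Hdc, chr2:126618679-126618928, minus strand: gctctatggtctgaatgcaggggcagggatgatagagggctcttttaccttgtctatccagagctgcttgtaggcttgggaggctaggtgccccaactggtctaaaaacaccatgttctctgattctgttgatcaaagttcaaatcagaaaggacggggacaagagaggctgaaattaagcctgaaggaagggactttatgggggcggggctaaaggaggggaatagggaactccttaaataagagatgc

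The annotated Hdc gene extends further upstream, so its stretch lies before only 1 of its possible starts. Capitals mark matches to 8 motifs searched on both strands. Afp held GTTAAT, letters read by HNF1, a liver and kidney factor, from 105 to 100 bases before the start, CCAAT on the opposite strand from 98 to 94, and TATAAA from 7 to 2. Hdc held none of the letters searched in the 250 bases shown. Of 32851 mouse promoter stretches of the same length, 6.43% held GTTAAT, 12.4% held TATAAA and 33.8% held CCAAT. The other motifs were the cyclic AMP element TGACGTCA (1.55% of stretches), its enkephalin variant TGCGTCA (1.75%), the HNF4 letters CAAAGTCCA (0.384%), the forkhead letters TGTTTAC (3.17%) and the palindromic glucocorticoid response element (0.00913%). Hmcn1 held CCAAT from 68 to 64 and, on the opposite strand, from 204 to 200 bases before its start, and TGTTTAC from 226 to 220. At one of its starts Frem1 held GTTAAT from 227 to 222 and, on the opposite strand, from 185 to 180, and at the other start it held no match. A match describes the letters only.

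In kidney, each of the 8 genes had higher signals on all 5 arrays at 1 week than on any array at 4 or 8 weeks. All 8 were called lower at 8 than at 1 week, where 27.9% of 13645 tested genes were, and all 8 were called lower at 4 than at 1 week, where 25.4% were; both counts follow from the choice of the genes. The median difference of the 8 genes was -4.56 from 1 to 8 weeks, beside -0.04 over all tested genes. Between 4 and 8 weeks only Serpina6 was called lower, where 0.396% of genes were, and the arrays of both ages overlapped for the other 7. For those 7 genes between 82.7% (Frem1) and 98.5% (Atp12a) of the log2 difference was reached by 4 weeks, and for Serpina6 only 47.8%.

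**Figure D1:**
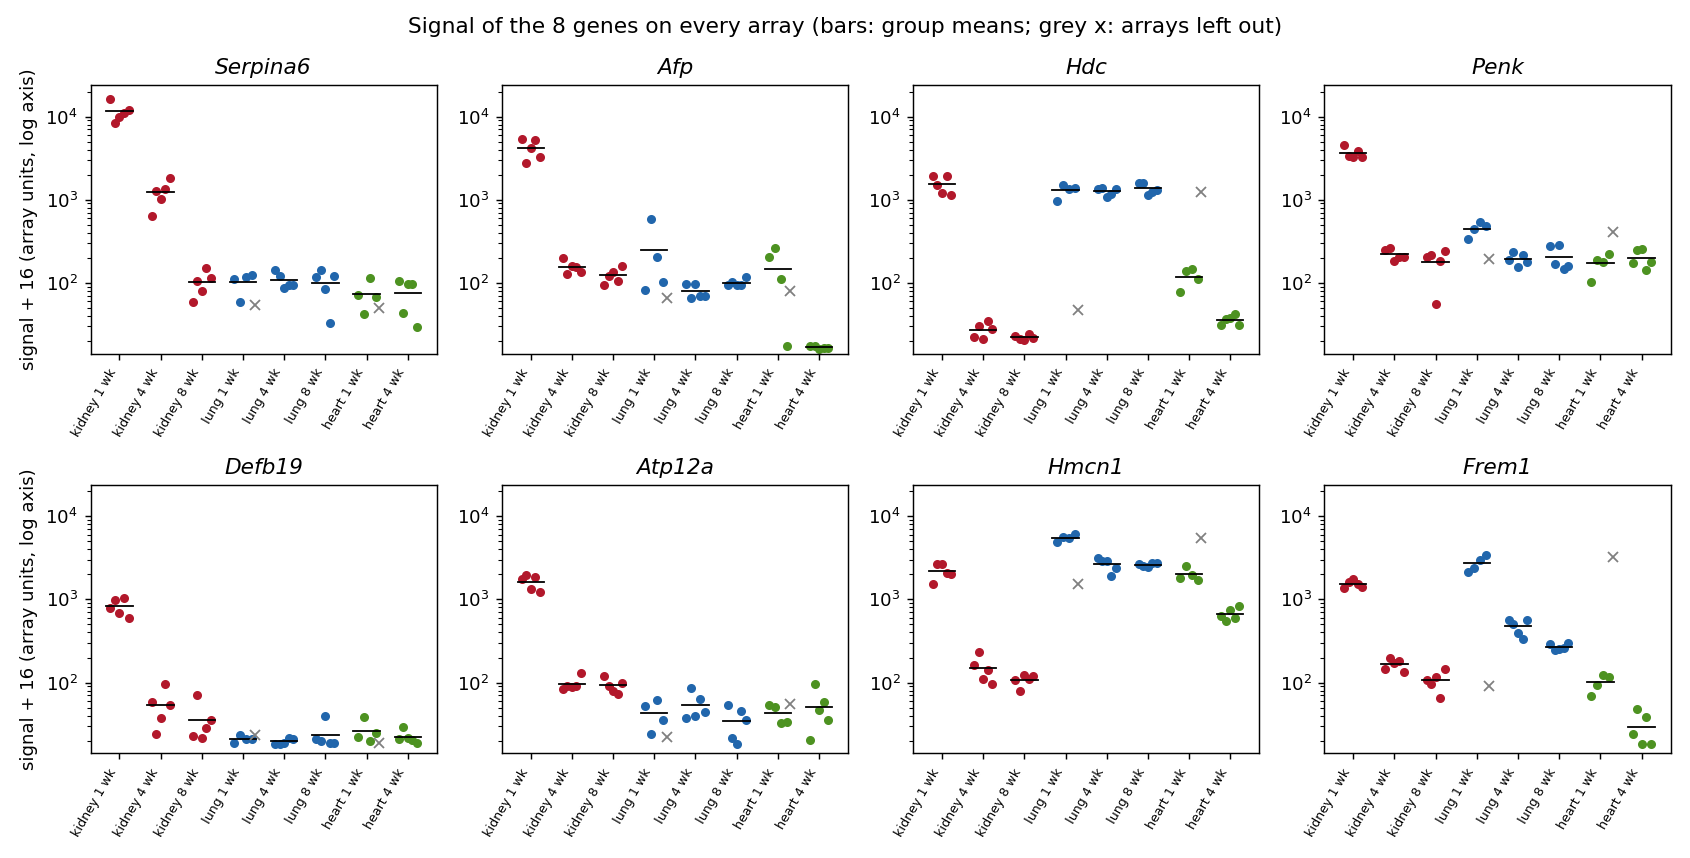
Signal plus 16, in array units on a log axis, of the 8 genes on each array of kidney (red), lung (blue) and heart (green) at the ages in weeks below each panel; black bars are means of the arrays used and grey crosses the 2 libraries left out. In kidney all 1-week arrays stand above the later ones for each gene, with an intermediate level at 4 weeks for Serpina6, and in lung Hdc keeps its level while Frem1 and Hmcn1 start high and decline.

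Outside the kidney, the genes did not share 1 course. In lung, 5 of the 8 reached the signal needed for a test; Frem1, Hmcn1 and Penk fell from 1 to 8 weeks, 3 of 5 beside 22.1% of all tested genes. From 1 to 4 weeks Afp passed too, 4 of 5 beside 19.9%, and from 4 to 8 weeks Frem1 alone fell, 1 of 5 beside 1.14%. Afp reached the level for a test in lung only through its 1-week mean, which favours a fall, so its call there is a description only. In heart only Penk and Hmcn1 were bright enough, and Hmcn1 fell, 1 of 2 beside 14.8%. Serpina6, Defb19 and Atp12a stayed under the signal for a test in lung and heart, so for them these organs give no measured change.

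**Figure D2:**
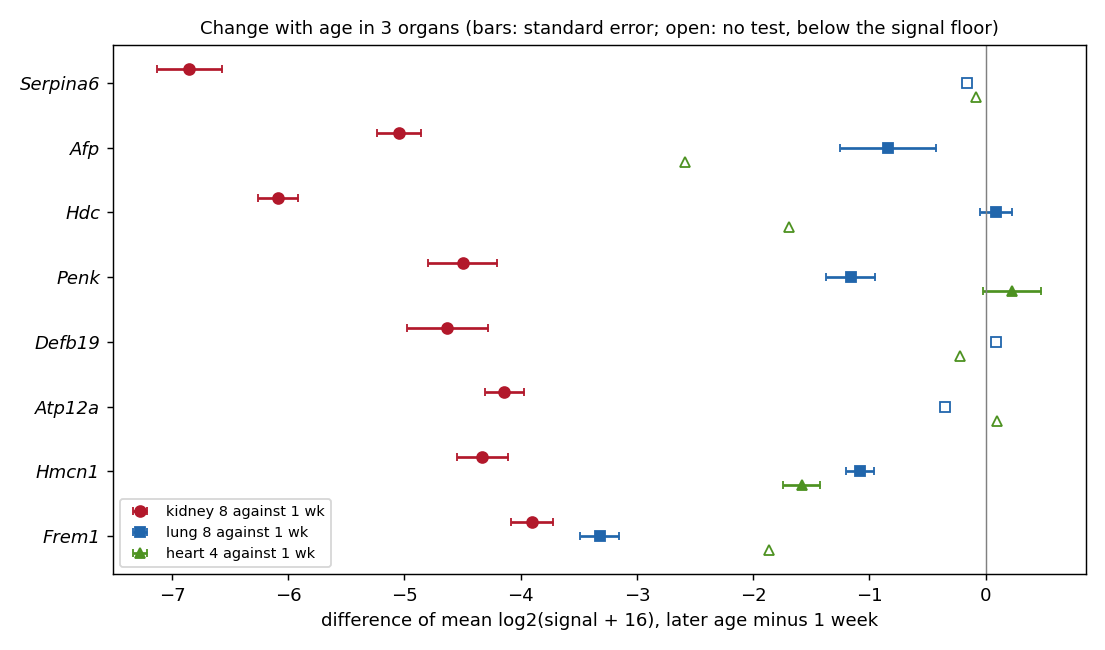
Difference of mean log2(signal + 16) between the later age and 1 week for each gene, in kidney (circles, 8 against 1 week), lung (squares, 8 against 1 week) and heart (triangles, 4 against 1 week). Bars are standard errors. Open symbols had no test because every group mean of log2(signal + 16) in that organ lay below the value for a signal of 117.9. Kidney differences lie between -6.85 and -3.90, and in lung Frem1 lies at -3.32 and Hdc at 0.09.

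Serpina6 had the largest decline of all genes tested in kidney and the slowest course of the 8. Its signals on the 1-week kidneys were 16320, 8396, 9830, 10960 and 12000. The 4-week signals were 619.6, 1262, 1009, 1339 and 1823, and at 8 weeks 43.5, 88.2, 64.5, 134.6 and 99. The 3 ages thus formed 3 separate levels with no overlap, unlike any other gene of the 8. The mean was 116-fold lower at 8 than at 1 week (difference -6.85, SE 0.28), with -3.28 up to 4 weeks and -3.57 after it (SE 0.28 each). On lung and heart arrays Serpina6 lay between 13 and 126.4 at every age, which overlaps the 8-week kidneys. At 4 weeks kidney was still 10.9-fold above lung (difference 3.45, SE 0.36, adjusted p = 3.2e-10) and 17.6-fold above heart (4.13, SE 0.36, adjusted p = 4.1e-12), with all 5 kidneys above all lungs and hearts. In both comparisons Serpina6 reached the level for a test through kidney alone.

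Of 12 other tested genes of corticosteroid binding and action, 5 rose in kidney from 1 to 8 weeks, beside 19.5% of all genes, and none fell. Their median difference was 0.42. Hsd11b1, the enzyme that regenerates active glucocorticoid, went from a mean of 536.1 to 2686 (difference 2.29, SE 0.13, adjusted p = 1.8e-09). Per1, Zbtb16, Sgk1 and Fkbp5, all known to respond to glucocorticoids, rose by 1.51, 1.44, 1.37 and 0.87. The glucocorticoid receptor gene Nr3c1 had means of 1739 and 1801 (difference 0.05, adjusted p = 0.67). Serpina6 and these 5 genes thus went in opposite directions in kidney over the same ages. The rise of the list was not particular to kidney. In lung 9 of 12 rose and 1 fell from 1 to 8 weeks (median 0.72), beside 22.2% and 22.1% of all genes. In heart 6 of 12 rose and none fell from 1 to 4 weeks (median 0.74), beside 11.8% and 14.8%.

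Serpina6 lies on chromosome 12 in a cluster of serpin genes of clade A, most of them secreted protease inhibitors. Of 5 other tested genes of that clade, 1 rose and 2 fell in kidney from 1 to 8 weeks, too few to set against the 19.5% and 27.9% of all tested genes. Serpina1f, the next gene with a probe set beyond Serpina6 on the chromosome, had a mean of 104.3 at 1 week, 9288 at 4 weeks and 9283 at 8 weeks (difference 6.29, SE 0.11, adjusted p = 6.5e-15). Serpina10, the neighbour on the other side, fell from 951.1 to 282.6 (-1.69) and Serpina1b from 1083 to 207.6 (-2.11). Serpina6 and Serpina1f, neighbours in 1 cluster, thus had differences of -6.85 and 6.29. Genes of the Serpina1 group are close copies, and probes may not separate them.

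Afp had signals of 5367, 2772, 4121, 5134 and 3200 on the 1-week kidneys. At 4 weeks they were 183.2, 111.4, 144.6, 136.9 and 117.8, and at 8 weeks 78.6, 104.1, 119.4, 88.5 and 142.2. The later ages overlapped and lay far below every 1-week array. The mean was 33.2-fold lower at 8 than at 1 week (difference -5.05, SE 0.19), with -4.71 of this up to 4 weeks. With the log2 signals of all probe sets averaged it was -2.96. Of 4 other probe sets for Afp, 3 had lower means at 8 than at 1 week, with differences of -4.00, -4.16 and -1.62, and the remaining probe set stayed at or below 35.6 on all arrays used.

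In lung, Afp at 1 week was uneven, with signals of 66, 572.3, 190.3 and 86.8. Only this age reached the level for a test in lung, so its p-values there are a description. At 4 weeks it was 79.6, 50.4, 80.9, 53 and 53.5, and at 8 weeks 77.3, 85.5, 77, 79.2 and 100.8. The difference from 1 to 4 weeks was -1.19 (SE 0.41, adjusted p = 0.033) although the arrays of both ages overlapped, and from 1 to 8 weeks it was -0.84 (SE 0.41, adjusted p = 0.12; -1.22 and 0.022 without lung 1-week replicate 1). The call from 1 to 4 weeks was lost with the replicate number as a block (-1.16, adjusted p = 0.061), without lung 1-week replicate 3 (adjusted p = 0.077) or lung 4-week replicate 2, 4 or 5 (0.064, 0.063 and 0.063), with the library left out kept as labelled (-0.90, adjusted p = 0.14), and with no filter on dim genes (adjusted p = 0.052). In heart, Afp was at 188.7, 244.6, 94.4 and 1.2 at 1 week and between 0.1 and 1.2 on all 5 arrays at 4 weeks. The changes of lung and heart differed by 1.40 (SE 0.66, adjusted p = 0.15), which became 2.25 (adjusted p = 0.0011) without heart 1-week replicate 4, 3.79 (adjusted p = 0.0091) with an offset of 1 and 0.48 with an offset of 64. Kidney at 4 weeks was above heart on all arrays (difference 3.20, SE 0.44, adjusted p = 1e-07). With heart near 0 its size is set by the offset, from 1.64 to 6.43. The difference of kidney from lung missed the threshold (0.96, SE 0.44, adjusted p = 0.055; 0.024 with quantile normalization and 0.046 with an offset of 64).

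Albumin, Alb, moved with Afp across the 1-week arrays of lung and heart. In the 4 lungs Alb was 257.3, 1333, 700.8 and 288.6, and in the 4 hearts 842, 1054, 683 and 181.9, so in each organ the order of the arrays by Alb was the order by Afp. In the 1-week kidneys the 2 orders differed in part, with Alb at 11530, 682, 450.6, 886.4 and 2921. Kidney replicate 1 was the highest for both, whereas replicate 3 had the lowest Alb and an Afp of 4121. Serpina6 stayed closer to Alb there: both were highest on replicate 1, then on 5, then on 4. The part that liver transcripts have in the lung and heart values was not tested.

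Within the albumin family, Alb and Afm, which encodes the vitamin E carrier afamin, lie next to Afp on chromosome 5. Afm rose from 2689 to 3820 in kidney (difference 0.51, SE 0.11, adjusted p = 0.0014) and the change of Alb was not called (-1.07, SE 0.62, adjusted p = 0.17). Of 11 genes known to be silenced with Afp in the maturing liver, or to take part in that silencing, 9 fell and 2 rose in kidney. Their median was -1.57, and over all tested genes 27.9% fell and 19.5% rose. The imprinted gene Mest fell from 3866 to 308.1 (-3.58), Gpc3, a glypican that restrains growth, from 2762 to 245 (-3.37), Dlk1 from 741.2 to 115.9 (-2.44) and Igf2, the fetal growth factor gene, from 1452 to 279.3 (-2.30). Those that rose were Zbtb20 and Zhx2, both known as repressors of Afp in liver, by 0.76 (adjusted p = 0.00099) and 0.37 (adjusted p = 0.031). In lung 9 of the 11 also fell and 2 rose from 1 to 8 weeks (median -1.22), beside 22.1% and 22.2% of all genes. In heart 6 of 11 fell and 1 rose from 1 to 4 weeks (median -1.38), beside 14.8% and 11.8%.

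Hdc left the kidney's course in lung, where it kept its level. On the 1-week kidneys its signals were 1894, 1482, 1171, 1928 and 1109. By 4 weeks the signals were 6.5, 14.4, 5.2, 18.6 and 11.7, and at 8 weeks 7, 5.2, 4.3, 8.2 and 5.4, near the bottom of the scale. The mean was 67.9-fold lower at 8 than at 1 week (difference -6.09, SE 0.17), a value that ran from -7.75 to -4.46 with the offset and the other settings tried. The second probe set for Hdc gave -5.61.

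On lung arrays of every age, Hdc overlapped the 1-week kidneys. Its lung signals were 957.7, 1474, 1333 and 1378 at 1 week, 1323, 1362, 1070, 1150 and 1334 at 4 weeks, and 1567, 1583, 1130, 1221 and 1308 at 8 weeks. The difference from 1 to 8 weeks was 0.09, with a 95% interval from -0.20 to 0.38 (adjusted p = 0.64; 1.04 and 0.28 with the library left out kept as labelled), and from 1 to 4 weeks -0.03 (interval -0.32 to 0.26). At 4 weeks kidney was 46.9-fold below lung (difference -5.55, SE 0.17, adjusted p = 6.8e-25), with no overlap. In heart Hdc was 61.1, 123, 129.5 and 94.1 at 1 week and 14.9 to 26.2 at 4 weeks, all lower, with no test because the mean of 101.9 lay under the floor. The change in lung from 1 to 4 weeks exceeded that in heart by 1.66 (SE 0.25, adjusted p = 8.6e-06). Since Hdc in heart lay under the floor for a test, this p depends on a dim heart signal. The size ran from 0.94 to 3.30 over the settings tried. The 3.30 came with the 2 libraries as labelled, whose Hdc signals of 1219 (heart) and 31.2 (lung) enlarge it, so it adds no support. The probe sets also disagreed in heart: the second gave -0.10 in heart, and with both averaged the difference between the organs' changes was 0.97 (adjusted p = 0.00033).

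Among 7 other tested genes of histamine breakdown, transport and reception, 4 rose and 1 fell in kidney from 1 to 8 weeks, with a median of 0.85, beside 19.5% and 27.9% of all tested genes. Hnmt, the methyltransferase that inactivates histamine in tissues, rose from 248.2 to 843.5 (1.73, SE 0.17, adjusted p = 4.2e-07). Slc22a2, a cation transporter that carries histamine, rose from 1711 to 4033 (1.24), and the oxidising enzymes Aldh7a1 and Maob rose by 1.10 and 0.85. Aoc1, diamine oxidase, which breaks down histamine outside cells, fell from 640 to 306.6 (-1.03). The receptor gene Hrh2 had means of 148.7 and 222.2 (0.57, adjusted p = 0.069).

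Mast cells and basophils are the classical histamine makers, and their genes gave no single order of the organs. The summed signal of 11 of their genes was 2004 to 3300 in 1-week kidneys, 5319 to 6336 in 1-week lungs and 2129 to 3057 in 1-week hearts. Mcpt4, a mast cell protease, was 10.3 to 73.1 in 1-week kidneys and 32.6 to 84.2 in 1-week lungs, which overlap. Cpa3, the mast cell carboxypeptidase, was 101.5 to 202.3 in 1-week kidneys, 314.1 to 432.6 in 1-week lungs and 350.5 to 529.3 in 1-week hearts. It was 121.8 to 224.3 in 8-week kidneys, where Hdc was at most 8.2. Of the 5 tested in kidney, Kit and Ms4a2 fell (-0.91 and -0.75), too few to set against the 27.9% of all tested genes, with a list median of -0.26. The part of these cells in the Hdc values was not tested.

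Penk had 1-week kidney signals of 4578, 3301, 3247, 3878 and 3267. At 4 weeks they were 234.9, 244.7, 166.6, 186.2 and 186.3, and at 8 weeks 185.6, 201.3, 40.2, 167.5 and 223.2, all far below the 1-week arrays. The mean was 22.6-fold lower at 8 than at 1 week (difference -4.50, SE 0.30), nearly all of it by 4 weeks (-4.06). At 4 weeks kidney stood at the level of the other organs, with differences of 0.17 from lung (95% interval -0.38 to 0.73) and 0.16 from heart (-0.39 to 0.72).

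Penk also fell in lung, from a lower start. Its signals there were 317.7, 431.6, 516.3 and 462.7 at 1 week and 173.8, 220.6, 139.9, 200.8 and 160.2 at 4 weeks, with no overlap. The difference was -1.19 from 1 to 4 weeks (SE 0.21, adjusted p = 0.00043) and -1.16 from 1 to 8 weeks (SE 0.21, adjusted p = 0.00047), and both calls held with the library left out kept as labelled (-0.95 and -0.92). Heart values were 85.3, 173.6, 161.6 and 204.2 at 1 week and 124.6 to 240.1 at 4 weeks, a difference of 0.23 (SE 0.25, adjusted p = 0.55). The change in lung was below that in heart by 1.43 (difference -1.43, SE 0.41, adjusted p = 0.012), a call that was lost with the 2 libraries kept as labelled (-0.93, adjusted p = 0.12). Over the 8 genes, this comparison of changes gave 1 higher, Hdc, and 1 lower, Penk, of 5 tested, beside 10.5% higher and 8.08% lower of all genes.

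Of 11 other tested genes for opioid peptides, receptors and peptide processing, 2 rose and 5 fell in kidney, with a median of -0.25. Over all tested genes 19.5% rose, near the share here, and 27.9% fell. Cpe, the carboxypeptidase that trims neuropeptides out of their precursors, fell from 4583 to 997.7 (-2.16, SE 0.17, adjusted p = 4.5e-08). Anpep and Ace, peptidases of the cell surface that also cut enkephalins, fell by 1.01 and 0.71, whereas Mme, neprilysin, the main enkephalin-degrading enzyme, rose by 0.45 (adjusted p = 0.022). The receptor gene Oprm1 rose from 88.7 to 210 (1.37, SE 0.52, adjusted p = 0.041). Of the other opioid precursors, Pomc had means of 313.4 and 321.5 (0.06, adjusted p = 0.85) and Pdyn, at 54.22 and 64.4, was too dim for a test.

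Defb19 had signals of 771.7, 973.5, 671.9, 1036 and 579.1 on the 1-week kidneys. Those at 4 weeks were 42.8, 8.2, 21.7, 79.7 and 37.1, and at 8 weeks 7, 54.7, 5.7, 12.7 and 19.4. The mean was 24.8-fold lower at 8 than at 1 week (difference -4.63, SE 0.35), and lung and heart lay at or below 23.5 on every array used. Defb19 is best known from the testis. Of 8 Sertoli cell and epididymis genes listed beside it, Amh was at 12.6 to 52.1 and Cst9 at 5 to 27.3 in 1-week kidneys. The summed signal of the 8 was 1057 to 1472 in 1-week kidneys and 606.1 to 763.9 in 8-week kidneys. The 2 genes of that list bright enough for a test, Lcn2 and Dhh, fell (list median -1.33), too few to set against the 27.9% of all tested genes. The part of such cells in the Defb19 values was not tested.

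Of 19 other beta-defensin genes on the array only 3 were bright enough in kidney, and 2 of them rose. Defb1, the main kidney defensin, went from 9625 to 15920 (0.74, SE 0.14, adjusted p = 0.00034), and Defb29 from 1361 to 3425 (1.33, SE 0.11, adjusted p = 7.4e-08). Defb29 lies beside Defb19 in the defensin cluster of chromosome 2, with Defb21 between them, which stayed at a mean of 15.6 and 10.64. Here too a gene of the 8 and a near neighbour of its own family had opposite courses.

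Atp12a had signals of 1756, 1952, 1332, 1835 and 1217 on the 1-week kidneys, 66.6, 73.8, 73.2, 74.4 and 114.6 at 4 weeks, and 104, 75.9, 63.5, 55.8 and 83.9 at 8 weeks. The decline was complete by 4 weeks: the difference was -4.08 from 1 to 4 weeks, -4.14 from 1 to 8 weeks (SE 0.17 each; 17.6-fold at 8 weeks), and -0.06 between the later ages, with an interval from -0.43 to 0.30. Lung and heart arrays lay between 2.1 and 80.7. Atp4a, which encodes the gastric form of the same pump, took the opposite course in kidney, from 478.7 at 1 week to 976.9 and 1284 (1.40, SE 0.11, adjusted p = 6.4e-08), as did its beta subunit gene Atp4b, from 206.4 to 500.1 (1.25). Of 10 other tested genes for such pumps and their subunits, 5 rose and 2 fell, with a median of 0.32, beside 19.5% and 27.9% of all tested genes. Those that fell were Atp1b2, a beta subunit gene of the sodium pump (-1.74), and Fxyd1, a regulator of that pump (-0.91), while its kidney regulator Fxyd2 rose by 0.89. Collecting duct genes mark a segment where such pumps work. Of 14 tested, 6 rose, beside 19.5% of all tested genes, and 4 fell, near the 27.9% of all tested genes, with a median of 0.13.

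The matrix genes Hmcn1 and Frem1 were the only ones of the 8 that were higher in 1-week lung than in 1-week kidney with no overlap between arrays. Hmcn1 had signals of 1514, 2676, 2678, 2039 and 1983 on the 1-week kidneys. At 4 weeks they were 145.7, 214, 94, 126.7 and 81.2, and at 8 weeks 92.1, 64, 106.2, 93.7 and 103.1. The mean was 20.1-fold lower at 8 than at 1 week (difference -4.33, SE 0.22), and the later ages overlapped.

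Hmcn1 was the only gene of the 8 called lower in all 3 organs, with Hdc, Afp and Frem1 too dim for a test in heart. Lung signals were 4901, 5623, 5533 and 6076 at 1 week, 3098, 2862, 2858, 1921 and 2394 at 4 weeks, and 2636, 2492, 2422, 2726 and 2724 at 8 weeks. The lung difference was -1.09 by 4 weeks (SE 0.12, adjusted p = 6.9e-06) and -1.08 by 8 weeks (adjusted p = 5.7e-06), with 0.00 between 4 and 8 weeks. With the library left out kept as labelled these became -0.72 and -0.71 (adjusted p = 0.085 and 0.079). In heart, signals of 1799, 2525, 1961 and 1706 fell to 611.5, 533.6, 726.4, 587.6 and 825.4 (-1.58, SE 0.16, adjusted p = 9.9e-05), and the changes of lung and heart differed by 0.50 (interval -0.05 to 1.04, adjusted p = 0.22; 1.16 and 0.033 with the 2 libraries as labelled). At 4 weeks the organs were ordered lung, heart, kidney without overlap: lung was above heart by 1.97, and kidney was below lung (-4.20) and below heart (-2.23), with adjusted p values of 7.9e-12, 1.1e-20 and 3.2e-13.

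Of 20 other tested genes for hemicentin partners, fibulins and basement membrane proteins, 15 fell and 1 rose in kidney from 1 to 8 weeks, beside 27.9% and 19.5% of all genes, with a median of -1.32. The laminin chain genes Lama4 and Lama1 fell by 3.19 and 2.75, from means of 1022 and 1233, and Fbln1, fibulin 1, fell from 1706 to 330.8 (-2.31). Nid1, nidogen 1, which links laminin to type IV collagen, fell from 6791 to 1449 (-2.22). Col4a3, a chain of the mature glomerular basement membrane, rose from 1755 to 2781 (0.69, adjusted p = 0.015). In lung 13 of 19 of these genes fell and 1 rose from 1 to 8 weeks, beside 22.1% and 22.2% of all genes. In heart 9 of 18 fell and 3 rose from 1 to 4 weeks, beside 14.8% and 11.8%, so the rises were near the share of all genes.

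Frem1 had the lowest spread of the 8 on the 1-week kidneys, with signals of 1360, 1611, 1761, 1514 and 1402. At 4 weeks they were 131.4, 180.1, 156, 164.9 and 118.4, and at 8 weeks 91.9, 80.3, 101.6, 49.3 and 129.9. The mean was 14.9-fold lower at 8 than at 1 week (difference -3.90, SE 0.18), with -3.22 by 4 weeks.

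In lung Frem1 also declined in steps. Its signals were 2106, 2371, 2976 and 3442 at 1 week, 544, 496.1, 373.1, 322.5 and 546.2 at 4 weeks, and 274.1, 228.8, 239.8, 246.8 and 286.3 at 8 weeks, 3 levels without overlap. The differences were -3.32 from 1 to 8 weeks (SE 0.17, adjusted p = 2.7e-09), -2.54 from 1 to 4 weeks (adjusted p = 5.1e-08) and -0.78 from 4 to 8 weeks (SE 0.16, adjusted p = 0.026). The last of these was lost without any 1 of lung 4-week replicates 1, 2 or 5 or lung 8-week replicates 2, 3 or 4 (adjusted p from 0.051 to 0.07). With the library left out kept as labelled, the fall from 1 to 8 weeks was -2.34 (adjusted p = 0.024), that from 1 to 4 weeks -1.56 (adjusted p = 0.13) and that from 4 to 8 weeks -0.78 (adjusted p = 0.92).

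In heart Frem1 was dim, with signals of 53.6, 77.8, 107.9 and 99.3 at 1 week and 2 to 31.6 at 4 weeks, all lower, with no test. The changes of lung and heart differed by -0.68 (SE 0.33, adjusted p = 0.16), and the sign was not stable: the value was -1.48 (adjusted p = 4.5e-06) with an offset of 64, 0.58 with an offset of 1 and 1.30 (adjusted p = 0.36) with the 2 libraries as labelled. At 4 weeks the organs were ordered lung, kidney, heart: kidney was below lung (-1.49, SE 0.22, adjusted p = 3.5e-07; 0.065 with the 2 libraries as labelled) and above heart (2.60, adjusted p = 1.5e-12), and lung was above heart by 4.10 (adjusted p = 9.4e-18). Because heart was so dim, the sizes against heart depend on the offset, from 1.48 to 4.01 for kidney and from 2.74 to 5.59 for lung. Over the 8 genes at 4 weeks, kidney against lung gave 1 called higher and 3 lower of 6 tested, beside 29.1% and 37.1% of all genes. Kidney against heart gave 3 higher and 1 lower of 5, beside 32.6% and 31.2%, and lung against heart gave 3 higher of 4, beside 41.9%. Where tested, Serpina6, Afp and Hdc, and Frem1 against heart, reached the level for a test only through the organ where they were higher. Over all genes the median difference of lung from heart was 0.19, and those of the other comparisons lay within 0.1 of 0.

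Of 11 other tested genes of the Fraser complex, its ligand nephronectin and the receptors they bind, 8 fell and none rose in kidney. Their median was -1.58, and over all tested genes 27.9% fell and 19.5% rose. Frem2 fell from 1685 to 339.5 (-2.26, SE 0.13, adjusted p = 1.2e-09) and Fras1 from 1500 to 432.7 (-1.76, SE 0.14, adjusted p = 5.1e-08). Itga8, the integrin chain of the nephronectin receptor, fell from 3411 to 1001 (-1.75), and Npnt, nephronectin itself, from 14430 to 4825 (-1.58). In lung Frem2 and Fras1 fell by 1.76 and 1.77, while Itga8 rose by 0.68, and in heart Fras1 fell by 1.96 from 1 to 4 weeks.

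**Figure D3:**
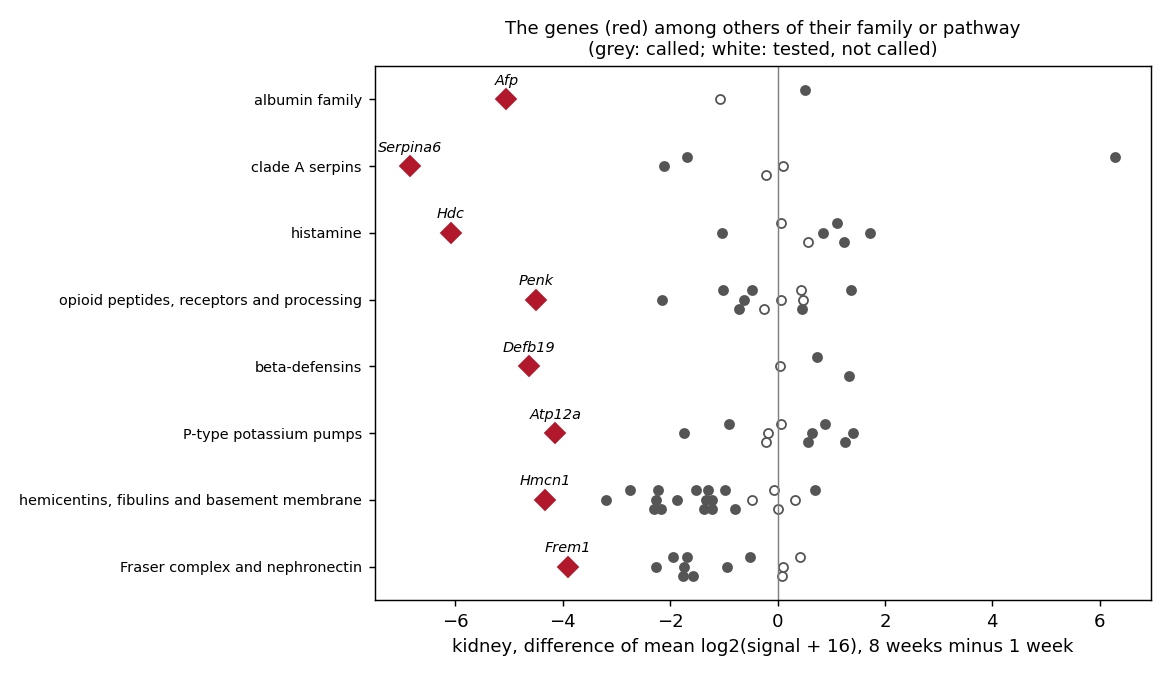
Kidney difference of mean log2(signal + 16), 8 weeks minus 1 week, for the 8 genes (red diamonds) and the other tested genes of each family or pathway (filled grey circles, called; open circles, not called). Other genes of the matrix groups lie mostly to the left of 0, and those of the histamine and beta-defensin groups mostly to the right.

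Markers of other cell types moved with age in kidney beside the 8 genes. Of 12 renal stroma genes, which mark the connective tissue around the tubules, 11 fell, with a median of -2.22 and a summed signal of 44590 to 56040 at 1 week and 10380 to 12950 at 8 weeks. All 10 cell cycle genes fell (median -3.05), and 11 of 12 proximal tubule genes rose (median 1.14). Over all genes tested in kidney 27.9% fell and 19.5% rose. All 10 cell cycle genes also fell in lung from 1 to 8 weeks and in heart from 1 to 4 weeks. Of 11 stroma genes tested in lung, 7 fell and 3 rose from 1 to 8 weeks. Of 7 tested nephron progenitor genes 2 rose and 2 fell in kidney (median 0.46), near the shares of all genes. The progenitor marker Cited1 was 22.3 to 46.9 in 1-week kidneys. Itga8 and Dlk1 stand both on a marker list and on a list above. Of 3 tested erythroid genes 2 rose and 1 fell (median 0.53). The log2 ratio of the 3' to the 5' actin probe set, a sign of RNA length, was 0.34 to 0.51 on 1-week kidneys, 0.61 to 1.43 on 4-week kidneys, with replicate 1 the highest, and 0.73 to 0.99 on 8-week kidneys. The part of these in the differences of the 8 genes was not tested.

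Liver and adrenal transcripts varied between the 1-week kidneys. The summed signal of 19 hepatocyte genes was 44460, 16620, 21400, 18840 and 21770 there, against 9299 to 10960 at 8 weeks. Of 18 tested, 7 fell and 4 rose (median -0.68), beside 27.9% and 19.5% of all tested genes. The sum includes Ttr, which was high on every kidney, at 12500 to 18230 at 1 week and 4516 to 6132 at 8 weeks. On the log2 scale the list averaged 9.29, 7.75, 7.60, 7.98 and 8.64 on the 1-week kidneys and 7.60 to 7.80 at 8 weeks. Alb was high on replicates 1 and 5. Serpina6 averaged 14160 on these and 9729 on the other 3, and Afp 4283 and 4009. Without replicates 1 and 5 the difference from 1 to 8 weeks was -6.64 for Serpina6 and -5.02 for Afp, beside -6.85 and -5.05 with them.

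Adrenal medulla genes were high on replicates 3 and 4, where Chgb, a chromogranin of secretory granules, was 1658 and 1615 against 11.7 to 50.4 on the other 3. The summed signal of 9 adrenal cortex genes was 6191 and 5856 on these, against 2117 to 2647. Of the tested cortex genes 1 of 8 fell (median -0.45), beside 27.9% of all tested genes. Of the medulla genes 2 of 8 rose (median 0.09), near the 19.5% of all tested genes. Penk, which chromaffin cells of the adrenal medulla also make, averaged 3562 on replicates 3 and 4 and 3715 on the others, and without them its difference was -4.52. Each of the 8 genes was within 0.54 log2 units of its mean on every 1-week kidney. The mean of the hepatocyte list ranged from -0.65 to 1.04 and that of the medulla list from -1.19 to 1.04. Serpina6 reached its 0.54 on replicate 1, where the hepatocyte list was at 1.04. The part that liver and adrenal transcripts have in the kidney values of the 8 genes was not tested.

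**Figure D4:**
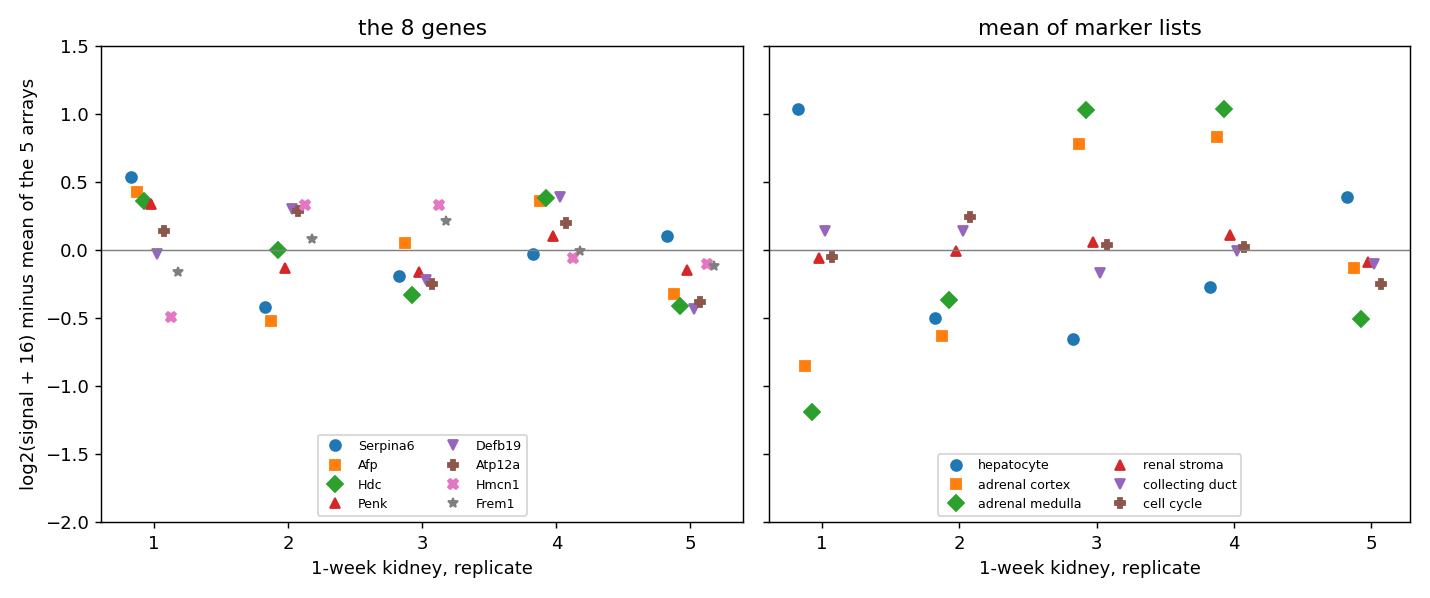
Deviation of log2(signal + 16) on each of the 5 1-week kidneys from the mean of the 5, for the 8 genes (left) and for the means of 6 marker lists (right). The 8 genes stay between -0.52 and 0.54, the hepatocyte list reaches 1.04 on replicate 1 and the adrenal medulla list 1.04 on replicate 4.

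The 8 genes were also placed by the genes whose log2 signals followed theirs most closely over the 38 arrays. These correlations are across arrays that share organ and age, so they describe the pattern only. Defb19 and Atp12a were each other's nearest (Pearson r = 0.928). For Atp12a the next was Alx1, a homeobox gene, and for Defb19 Rab11a (r = 0.923) and then Alx1 (r = 0.920 with each of the pair). Alx1 had kidney means of 1089, 124.8 and 86.66 at 1, 4 and 8 weeks. Hmcn1 lay closest to Rcn1 (r = 0.984), Marcks and Pcdhb17 (r = 0.978 each), and Hdc to Reck (r = 0.966), Gucy1a1 and Ldb2 (r = 0.954 each). Frem1 was nearest to Epha3 (r = 0.933), an ephrin receptor gene, then to Tcf21 (r = 0.926), a transcription factor gene of kidney and lung mesenchyme, and Hunk (r = 0.924). Penk was nearest to Apcdd1, Cdkn1c and Clec18a (r = 0.898, 0.892 and 0.891), Afp to Heph, Sema5a and Rab11a (0.904, 0.885 and 0.884), and Serpina6 to Hoxc4, Rab11a and Defb19 (0.892 each).

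The 2 nearest protein-coding genes with a probe set on each side of the 8, by the order of the RefSeq annotation (GRCm38.p6), made 32 genes, a choice made after values were seen. Of these 21 were bright enough for a test in kidney, 5 were called higher, 7 lower and 9 neither, shares near the 19.5% and 27.9% of all tested genes, and 1, Serpina1b, was lower by over 2 log2 units. Beside Hdc on chromosome 2, Slc27a2, a fatty acid transporter gene of the proximal tubule, had means of 7843 and 26390 at 1 and 8 weeks (difference 1.77). Beside Penk on chromosome 4, Bpnt2 kept means of 1254 and 1208 (-0.03), and beside Frem1 on the same chromosome Ttc39b had 162.9 and 149.3 (-0.12).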

How the data were processed

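Whole organs gave total RNA by Trizol, which was copied to biotin cRNA and hybridised, per the labels' protocols. The submitters' processing notes name RMA and Partek 6.6 without their roles. The deposited values are intensity, linear signals from 0 to 69706.7 with a mean of 500 on each array after trimming 2% at each end; the summary method is not given in the sources used here, and no detection calls were used.

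Of 45101 probe sets, 34958 carry 1 symbol. Each gene was read from its probe set with the highest mean over 40 arrays. Age was fitted within each organ with limma 3.58.1 (lmFit and eBayes, R 4.3.3) on log2(signal + 16), with organs at 4 weeks and the difference of changes in fits over organs, and Benjamini-Hochberg adjustment over all genes tested, at 0.05. Genes whose highest group mean of log2(signal + 16) was under the value for the 40th percentile of all signals (117.9) were not tested. Precision is limited by 5 arrays per group, or 4 in 1-week lung and heart. The labels do not say that each array is a separate animal for every organ, so p-values measure the spread between these arrays. The residuals of arrays with the same replicate number correlated from -0.22 to 0.27 over 15 pairs in kidney, from -0.07 to 0.22 over 13 in lung and from 0.01 to 0.44 over 4 in heart (median 0.13, beside 0.00 for different numbers); in no organ did every pair exceed 0.1, so arrays were not paired. The fit was tested on simulated data.

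The genes, the 21 lists (303 entries, 257 matched) and the rules were chosen with earlier results of these data known. All 8 genes are named throughout; from each pathway list up to 4 called genes with the largest kidney change and fixed family genes, from each marker list the 3 of highest kidney signal, and 3 nearest profiles per gene, were open to naming. Other probe sets, marker values per array, chromosome neighbours, and Nr3c1, Fkbp5, Hrh2, Maob, Mme, Igf2, Zbtb20, Zhx2, Npnt, Nid1, Col4a3, Fxyd2, Mcpt4, Ms4a2, Amh, Cst9 and Cited1 were chosen after values were seen. The alternatives were other offsets, no filter, quantile normalization, averaged probe sets, a replicate block, a random block on the number in the description, the 2 libraries as labelled, the 1-week kidneys high in liver or adrenal genes left out, and each array left out. Files were read with the R package data.table (version 1.17.8), and matplotlib 3.10.9 under Python 3.11.15 drew the figures.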

Additional observations from a re-analysis of the deposited data

Results flagged for a closer look

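On 5 of 64 gene and group combinations, 1 array stood apart from the others of its group by Dixon's ratio of gap to range, where chance gives about 1 in 20. These were Serpina6 on lung 1-week replicate 2 (ratio 0.862; signal 42.4 against 95.8 to 108.1), Penk on kidney 8-week replicate 3 (0.817; 40.2 against 167.5 to 223.2), Defb19 on lung 8-week replicate 3 (0.851; 23.5 against 2.8 to 5), Atp12a on kidney 4-week replicate 5 (0.803; 114.6 against 66.6 to 74.4) and Hmcn1 on kidney 8-week replicate 2 (0.711; 64 against 92.1 to 106.2).

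For 2 genes the change from 1 to 4 weeks differed between lung and heart by the test of that difference: Hdc, whose change in lung was above that in heart by 1.66, and Penk, whose difference between lung and heart was -1.43. The value for Hdc rests on a heart signal under the floor for a test, and its second probe set changed by -0.10 in heart.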

How the results depend on the processing

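With no filter on dim genes, 4 of the genes were called in heart from 1 to 4 weeks (Afp, Frem1, Hdc and Hmcn1) and 7 between kidney and heart at 4 weeks. With the 2 libraries kept as labelled the counts were 3 in heart, 1 in lung from 1 to 4 weeks (Penk) and 0 in lung from 4 to 8 weeks (limma; Frem1 at -0.78, adjusted p = 0.92). Leaving out 1 array at a time gave 1 to 2 genes in heart (2 without heart 1-week replicate 4, Afp added), 3 to 4 in lung from 1 to 4 and from 1 to 8 weeks, 0 to 1 in lung from 4 to 8 weeks, 2 to 3 for the difference of changes, and constant counts of 8 in kidney for 4 and for 8 against 1 week, 1 for 8 against 4 weeks, 4 for kidney against either organ and 3 for lung against heart. With the replicate number as a block, 3 genes were called in lung from 1 to 4 weeks (Afp lost), and no other call on the 8 genes changed. Of the list genes, 129 of 184 were called in kidney, and 128 to 133 with other offsets or quantile normalization. No result changed direction past the threshold. The causes were not tested beyond what each setting alters. Signals near 0 have no measured fold, so sizes that involve them depend on the offset: in kidney those of Hdc, from -7.75 to -4.46, and Defb19, from -5.69 to -3.37, and against 4-week heart those of Afp and Frem1, and their differences of changes. The last of these for Frem1 also changed sign, from -1.48 to 1.30, without a call on the positive side.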
